A study of Mus musculus with 13 samples.

Results

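Lrmda, March3 and Nlrp1b were chosen by their levels in microglial nuclei, which had differed between restricted and ad libitum fed old mice in an earlier analysis of these same counts. They were matched by symbol and are 3 of the 32285 genes in the matrices. Nuclei of whole frozen hippocampus from 13 female hybrid mice (strain label C3HB6F1, C3B6F1 in the series text) had been sorted after a DNA stain and sequenced on the 10x Genomics 3′ platform, each mouse giving 1 library. Young mice were 5 months of age and fed ad libitum (n = 3), and old mice fed ad libitum were 24 months of age (n = 3, replicates 1, 2 and 4). Acute restriction mice were 24 months of age and had been on dietary restriction since 20 months (n = 3). Long-term restriction mice were 24 months of age and had been on dietary restriction since 5 months (n = 4). The labels name no genetic modification and no agent in any group.

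Microglia are the resident macrophages of the brain, and they carry innate immune sensors and cytokine receptors. Nlrp1b encodes a sensor that assembles an inflammasome, the complex that activates caspase-1 and releases interleukin-1 family cytokines, and the dipeptidyl peptidases DPP8 and DPP9 hold it in check. March3 encodes a membrane-bound RING-type ubiquitin ligase that is known to mark cytokine receptors for degradation. Lrmda encodes a leucine-rich protein needed for melanocyte differentiation. It is a partner of the small GTPases Rab32 and Rab38, which direct cargo to lysosome-related organelles.

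In GENCODE vM21 (GRCm38, the same assembly as mm10), Lrmda spans 1036.4 kb at chr14:22019712-23056085 on the plus strand. The 3 antisense genes within it that the matrices list had 6 to 26 UMIs (unique molecular counts) over all microglia-like nuclei. Nlrp1b spans 77.6 kb at chr11:71153102-71230733 on the minus strand, next to its paralog Nlrp1a at chr11:71092236-71144704. The pair was checked because reads from near-identical copies are hard to assign to 1 gene. Transcripts were compared, and introns were not. Of all 50-base windows in the 4 protein-coding Nlrp1b transcripts, 1.32% to 2.16% also occurred in an Nlrp1a transcript, and in the last 1000 bases the share was 0.0% to 5.57%. The 250 bases before the 2 gene starts show how alike the paralogs are (RefSeq, GRCm38.p6, minus strand, 5′ to 3′, chr11:71230734-71230983 and chr11:71144705-71144954). The capitals mark GAGGAAGT, a sequence of the kind bound by the myeloid factor PU.1. The table lists 2 windows for Nlrp1b, and the one printed, at the annotated gene start, holds the motif whereas the other does not.
Nlrp1b: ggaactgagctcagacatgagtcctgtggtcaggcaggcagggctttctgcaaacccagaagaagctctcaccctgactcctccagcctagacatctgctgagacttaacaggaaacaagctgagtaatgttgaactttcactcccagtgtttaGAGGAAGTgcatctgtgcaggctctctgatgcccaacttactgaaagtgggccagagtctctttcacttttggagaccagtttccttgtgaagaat
Nlrp1a: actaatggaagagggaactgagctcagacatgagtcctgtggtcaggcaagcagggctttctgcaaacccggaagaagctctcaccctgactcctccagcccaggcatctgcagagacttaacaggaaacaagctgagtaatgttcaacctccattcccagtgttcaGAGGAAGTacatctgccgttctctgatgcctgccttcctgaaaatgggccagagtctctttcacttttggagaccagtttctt
An alignment placed 219 of 250 bases (87.6%) as identical. Searched on both strands were 5 motifs, and the one in capitals was chosen for display after the matches had been seen. GAGGAAGT was in 2.44% of 32851 windows of this length, and GAGGAAG and GGAAGT, which lie within it, were in 10.6% and 19.7%. CACGTG (6.02% of windows) and TGAGTCA (4.46%) were in neither sequence. The 250 upstream bases of Lrmda held none of the 5. Windows of 300 bases, which run past the gene start, were searched too, and there Lrmda held CACGTG (7.15% of windows), and March3 had no window under this symbol.

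Libraries held 38546292 to 80538090 UMIs, and 98041 nuclei were retained after filters and removal of doublets. Of 104391 distinct barcode sequences, 1358 occurred in more than 1 library. Clustering gave 1647 microglia-like nuclei. Their summed microglial markers reached 12650 to 19830 CPM (UMIs per 1000000 UMIs of the class) in each library, against 148.9 to 283.6 CPM for 9 border macrophage markers, of which Pf4, Lyve1 and Cbr2 were at 0. Some markers of other cells moved with the groups. The 10 oligodendrocyte markers summed to 117.3 to 261.2 CPM in young and 325.7 to 450.2 CPM in old ad libitum mice, against 18850 CPM in oligodendrocyte-like nuclei. The 9 border macrophage markers, mostly Stab1 (480 of 548 UMIs), summed to 148.9 to 223.3 CPM in old ad libitum and 234.3 to 283.6 CPM in long-term restriction mice. The 10 astrocyte markers, mostly Slc1a3 (7264 of 7644 UMIs), summed to 2577 to 3170 CPM in old ad libitum and 3221 to 4344 CPM in long-term restriction mice. The 10 lymphocyte markers summed to between 0 and 100 CPM. Inhibitory neuron markers summed to 39.1 to 104.9 CPM in young and 126.0 to 380.0 CPM in old ad libitum mice, and CA3 markers to 39.1 to 60.3 and 77.6 to 102.5 CPM. Hilar mossy cell markers, mostly Calcrl (176 of 222 UMIs), summed to 93.1 to 137.4 CPM in old ad libitum and 54.7 to 78.6 CPM in long-term restriction mice. Committed precursor markers, mostly Itpr2 (1575 of 2485 UMIs), summed to 907.7 to 1008 CPM in old ad libitum and 1009 to 1355 CPM in acute restriction mice. Nuclei with a UMI of the border macrophage markers other than Stab1 and Dab2 were left out in 1 alternative. With age March3 was then at 2.35 (edgeR, adjusted p = 0.000425) and Lrmda at 0.68 (edgeR, adjusted p = 0.0233). For long-term restriction 1 gene was then called, against 3 with all nuclei. The part of the other markers named so far in the results was not tested. Fibroblast markers, with 39 UMIs in all, summed to 7.145 to 137.5 CPM in long-term restriction mice and 0 to 22.9 CPM in the other groups. Their part was not tested either. Mural markers summed to 309.2 CPM in old ad libitum replicate 1, where 1 nucleus held 23 of 27 such UMIs, and to between 0 and 49.1 CPM in the other 12 libraries. Of 242 microglia-like nuclei in a sub-cluster led by Slc38a11 and Tbx3os1, which also lead the mural cluster, 5 had a mural marker UMI. Without nuclei holding such a UMI, the log2 fold change of March3 was 2.35 with age (edgeR, adjusted p = 0.000525) and -1.04 under long-term restriction, and that of Lrmda was 0.69 (edgeR, adjusted p = 0.0206) and -0.77. Nlrp1b was then at -0.96 under long-term and -1.64 under acute restriction. Microglia-like nuclei numbered 20 to 165 per young mouse, 35 to 183 per old ad libitum mouse, 108 to 309 under acute and 79 to 185 under long-term restriction. Young replicate 1, with 20, was at the minimum set for a sum. Median UMIs per microglia-like nucleus were 919.5 to 1314 in young, 1441 to 2261 in old ad libitum, 1288 to 1430 in acute and 1233 to 1570 in long-term restriction mice. Depth was thus higher in every old ad libitum mouse than in any young or acute restriction mouse. The 4 libraries numbered 1, with 1 in each group, stood apart: oligodendrocyte-like nuclei made up 0.854% to 4.16% of their named nuclei, against 9.24% to 28.4% in the other 9.

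Nlrp1b, the inflammasome sensor, was low in the microglia-like nuclei of restricted mice. Its level was 156.4, 170.8 and 183.7 CPM in young replicates 1, 2 and 3, and 126.0, 190.3 and 162.9 CPM in old ad libitum replicates 1, 2 and 4. Acute restriction replicates 1, 2 and 3 had 35.28, 64.98 and 61.7 CPM, from 5, 19 and 26 UMIs. Long-term restriction replicates 1 to 4 had 117.8, 82.0, 95 and 57.16 CPM, from 12, 24, 15 and 8 UMIs. Every restricted mouse was below every ad libitum mouse, and old and young ad libitum mice overlapped. Against old ad libitum mice alone, every long-term mouse was lower in 3.43% of genes and every acute mouse in 6.03%. The share of genes lying apart from young mice as well was not worked out. Means were 159.7 ± 32.3 CPM (SD, n = 3) in old ad libitum, 54.0 ± 16.3 (SD, n = 3) in acute and 88.0 ± 25.3 (SD, n = 4) in long-term restriction mice. The fitted log2 fold change against old ad libitum mice was -1.54 ± 0.29 (SE) for acute and -0.96 ± 0.28 for long-term restriction. These contrasts chose the members, so the values are a description.

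March3, the ubiquitin ligase, spans 163.8 kb of the minus strand, where 1 antisense gene had 33 UMIs over all microglia-like nuclei. Summed over the class, it was high in old ad libitum and acute restriction mice and low in the other groups. Young replicates 1, 2 and 3 had 78.21, 40.18 and 34.98 CPM, from only 2, 4 and 8 UMIs. Old ad libitum replicates 1, 2 and 4 had 297.8, 223.3 and 186.1 CPM, from 26, 61 and 24 UMIs. Acute restriction replicates 1, 2 and 3 had 176.4, 215.5 and 161.4 CPM. Long-term restriction replicates 1 to 4 had 108.0, 68.33, 133.0 and 92.89 CPM, all below every old ad libitum and every acute restriction mouse. Acute restriction and old ad libitum mice overlapped. Single nuclei held much of the count: 1 nucleus gave 13 of the 26 UMIs of old ad libitum replicate 1 and another gave 12 of the 61 of replicate 2. The fitted log2 fold change was -1.25 ± 0.27 (SE) for long-term and -0.33 ± 0.24 for acute restriction, again as a description. With the nucleus of most March3 UMIs left out of each library, the acute value was -0.04.

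Summed over the class, Lrmda was highest in old ad libitum mice. Old ad libitum replicates 1, 2 and 4 had 2176, 1731 and 2319 CPM, above all other mice. The share of all genes highest in these mice was not worked out, and the choice of members favours such genes. Young replicates 1, 2 and 3 had 1369, 1065 and 1391 CPM. Acute restriction replicates 1, 2 and 3 had 1101, 1628 and 1488 CPM, and long-term restriction replicates 1 to 4 had 1316, 1042, 1267 and 1143 CPM. Young mice and both restricted groups overlapped. Each library gave 35 to 627 UMIs of Lrmda, so that counting error was smaller than for the other members. The fitted log2 fold change was -0.80 ± 0.15 (SE) for long-term and -0.55 ± 0.15 for acute restriction. With a trend over gene length removed from each library, the long-term value was -0.58.

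The groups' nuclei were spread unevenly over the sub-clusters of the microglia-like class, and the levels of March3, Lrmda and Nlrp1b differed between sub-clusters. The sub-clusters were formed from the counts of these same nuclei, so the values are a description. A sub-cluster of 178 nuclei led by Csf1, Mmp12, Lgals3, Spp1, Lpl and Itgax held 207 March3 UMIs, at 697.5 CPM, against 38.1 to 182.7 CPM in the other 7. It made up 0.0% to 1.21% of microglia-like nuclei per young mouse, 12.02% to 28.2% per old ad libitum mouse, 11.7% to 18.5% under acute and 5.81% to 12.7% under long-term restriction. Outside it March3 was at 30.9 to 78.2 CPM in young, 43.6 to 93.9 CPM in old ad libitum, 76.8 to 112.9 CPM in acute and 23.3 to 82.5 CPM in long-term restriction mice, so that old ad libitum mice overlapped each other group. Lrmda was at 2932 CPM in this sub-cluster and at 1940 CPM in the one led by Slc38a11. These held 53 and 120 of 296 old ad libitum nuclei but 3 and 3 of 289 young nuclei. The sub-clusters led by 2900060N12Rik and by Top2a went the other way for Lrmda with age. The first, at 436.5 CPM, held 17.57% of old ad libitum but 6.92% of young nuclei. The second, at 1687 CPM, held 6.42% and 15.22%. The one led by Eln, at 311.6 CPM, held 12.09% of acute and 13.56% of long-term restriction but 5.07% of old ad libitum nuclei. Most young nuclei (191 of 289) lay in a sub-cluster led by Il1r2 and Adamts12 that held 4 of 296 old ad libitum nuclei, with Lrmda at 1228 CPM and March3 at 47.6 CPM. Nlrp1b ranged from 52.2 to 165.0 CPM over the sub-clusters. In the one led by Slc38a11 it was at 147.1 CPM. That one held 40.54% of old ad libitum, 11.27% of acute and 11.11% of long-term restriction nuclei. In the one led by Eln it was at 55.5 CPM. The one led by Il1r2, at 165.0 CPM, went the other way. It held 1.35% of old ad libitum, 7.68% of acute and 8.89% of long-term restriction nuclei. The part of these shares in the Nlrp1b values was not tested. These counts and group percentages pool the mice of a group. Old ad libitum replicate 2 gave 183 of the 296 nuclei and young replicate 3 gave 165 of the 289. Shares per mouse were made only for the sub-cluster highest in March3. Without the sub-cluster highest in March3, a choice made from these values, the log2 fold change for long-term restriction was -0.79 for March3, -0.68 for Lrmda and -1.14 for Nlrp1b. For acute restriction it was 0.19, -0.49 and -1.73, March3 being turned in sign.

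**Figure D1:**
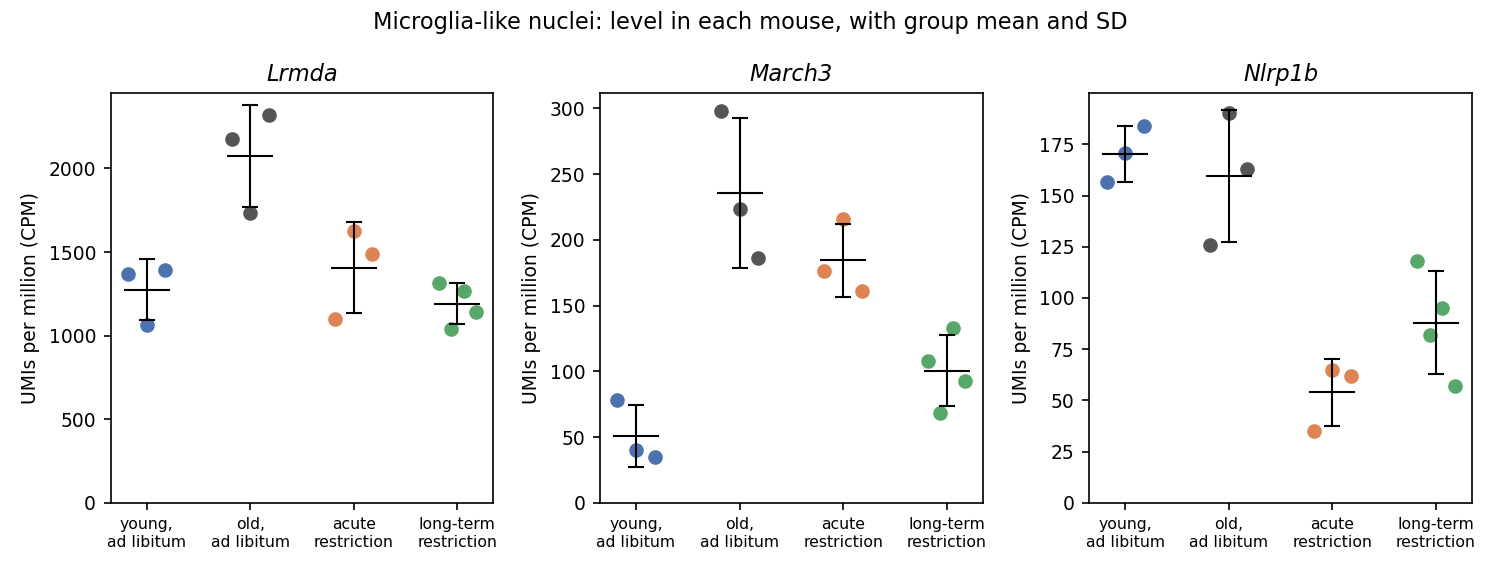
Level of Lrmda, March3 and Nlrp1b in microglia-like nuclei (vertical axis, CPM) in each mouse of the 4 groups, with group mean and SD as bars (n = 3, 3, 3 and 4). Lrmda was highest in the old ad libitum mice at 1731 to 2319 CPM, and the 7 restricted mice lay below all ad libitum mice for Nlrp1b. Restriction contrasts chose the members, so both patterns are a description.

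Of the 3 members, Lrmda and March3 passed the test for long-term restriction and Nlrp1b for acute restriction, which is how they were chosen. In these fits 0.0773% of 3880 genes were called lower under long-term restriction (3 genes, the third being the calcium channel subunit Cacnb4, named after its values were seen) and 0.0258% under acute restriction (1 gene). Genes whose restricted mice all lay below the old ad libitum mice made up 3.43% under long-term restriction, where the 3 members did so, and 6.03% under acute restriction, where Lrmda and Nlrp1b did so. Nothing is read from these counts. Without the 4 libraries numbered 1, the log2 fold change for long-term restriction was -0.79 for Lrmda, -1.15 for March3 and -1.17 for Nlrp1b, and for acute restriction -0.36, -0.16 and -1.50. Without splitting border macrophages and lymphocytes from the microglial cluster, edgeR called no gene for long-term restriction (212 of 4268 genes had an unadjusted p under 0.05), and March3 was at -0.87. Nor did it call any without old ad libitum replicate 4 or long-term restriction replicate 2, or with median UMIs per nucleus as a covariate, where March3 was at -1.39, -1.03 and -1.15, Lrmda at -0.72, -0.73 and -0.70 and Nlrp1b at -0.99, -0.91 and -1.05 (192 to 212 genes at an unadjusted p under 0.05 over these 4 fits). For acute restriction edgeR called no gene without acute restriction replicate 3, old ad libitum replicate 2 or 4, or young replicate 3, or without the Nlrp1b-richest nucleus of each library (168 to 242 genes over these 5 fits). Nlrp1b was at -1.64 to -1.36 in these 5. DESeq2 called 3 genes for long-term and 1 for acute restriction.

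The ageing contrast did not choose the members, but it shares the old ad libitum libraries with the contrasts that did. Genes chosen for lying lower in restricted mice than in these libraries are favoured to have high values there, which moves the ageing values upward, so they are no independent support. March3 rose with age by a log2 fold change of 2.48 ± 0.38 (SE; edgeR quasi-likelihood test, adjusted p = 0.000224), and 3 of 3 old mice exceeded every young mouse. Lrmda rose by 0.69 ± 0.17 (edgeR, adjusted p = 0.0195), higher in 3 of 3. Nlrp1b differed by -0.10 ± 0.29 (edgeR, adjusted p = 0.965), with an approximate 95% interval of -0.67 to 0.48. The sub-cluster highest in March3 was picked by that level and held 53 old ad libitum but 3 young nuclei. Leaving it out was thus bound to lower the March3 value, and nothing is concluded from that fit. Without it neither March3 nor Lrmda was called, with March3 at 1.05 (edgeR, adjusted p = 0.438) and Lrmda at 0.41 (edgeR, adjusted p = 0.308). These sums do not tell apart higher levels within nuclei and a larger share of that sub-cluster. Over all 3880 genes 95, or 2.45%, were called, and 1.52% were called higher. In 8.97% of genes every old mouse exceeded every young mouse. Because of the shared libraries, nothing is read from the members' count against these shares.

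Depth per nucleus and age could not be told apart. Values also depended on whether a trend over gene length was removed, and that trend was not set against depth or age. With the trend over gene length removed, Lrmda, the longest of the members, turned to -0.33 (edgeR, adjusted p = 0.761). March3 was still called, at 2.37 (edgeR, adjusted p = 0.000294). With median UMIs per nucleus as a covariate, March3 was at 2.20 (edgeR, adjusted p = 0.0443), Lrmda was at 0.46 (edgeR, adjusted p = 0.597) and the count of calls was 9. Without young replicate 3 the count was 7, and March3 was at 2.20 (edgeR, adjusted p = 0.0524) and Lrmda at 0.81 (edgeR, adjusted p = 0.0565). Lrmda was also no longer called without young replicate 2 or old ad libitum replicate 4, with adjusted p-values of 0.124 and 0.089 in edgeR. In the libraries not numbered 1, March3 had 34.98 and 40.18 CPM in young against 186.1 and 223.3 CPM in old mice, and Lrmda 1065 and 1391 CPM against 1731 and 2319 CPM. The fit without the libraries numbered 1 gave 2.48 for March3 (edgeR, adjusted p = 9.95e-05) and 0.67 for Lrmda (edgeR, adjusted p = 0.0131).

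Long-term and acute restriction were compared directly, in a contrast that shares the restricted libraries with the choosing ones. March3 was lower under long-term restriction by -0.92 ± 0.25 on the log2 scale, in 4 of 4 mice, and did not pass the test (edgeR, adjusted p = 0.562, approximate 95% interval -1.42 to -0.42). Nlrp1b was at 0.58 ± 0.30 (edgeR, adjusted p = 1.0, interval -0.02 to 1.18) and Lrmda at -0.24 ± 0.15 (edgeR, adjusted p = 1.0, interval -0.53 to 0.04). Over all genes 0.0% were called by edgeR and none by DESeq2, where 166 and 62 genes had an unadjusted p under 0.05. In 2.55% of genes every long-term mouse lay below every acute mouse, as for March3.

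**Figure D2:**
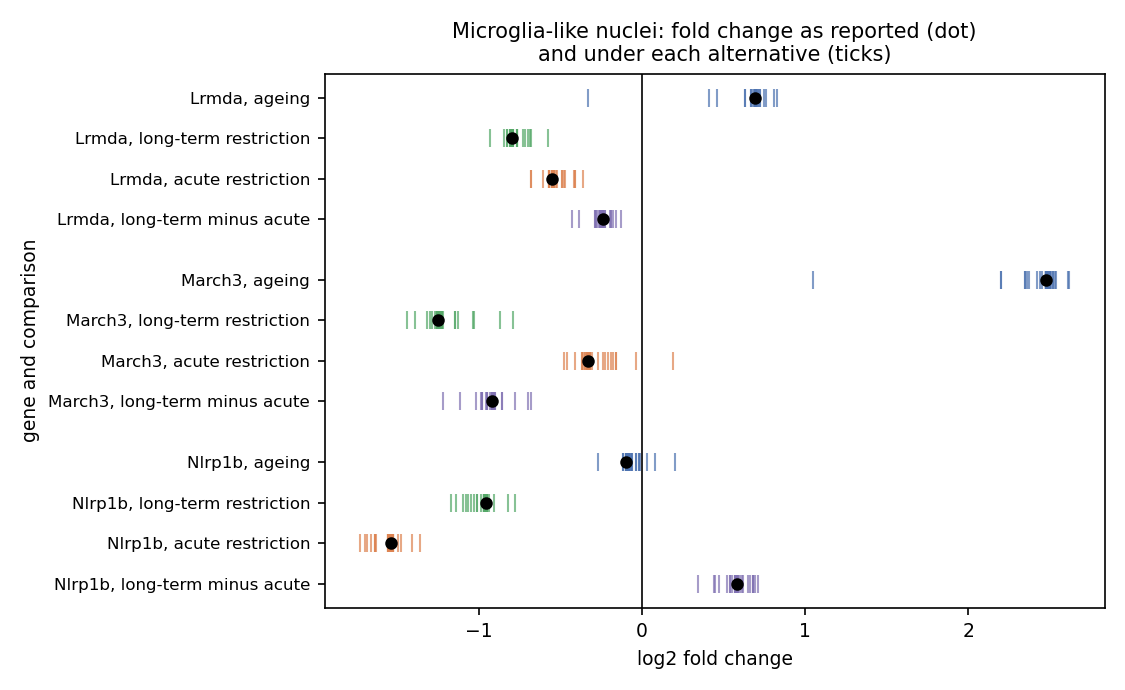
Log2 fold change (horizontal axis) of each member in microglia-like nuclei for the 4 contrasts, with the reported value as a dot and each alternative as a tick. Ticks cross 0 for Lrmda in ageing, with the gene length trend removed (-0.33), for Nlrp1b in ageing, which ranged from -0.27 to 0.20, and for March3 in acute restriction, without the sub-cluster highest in March3 (0.19).

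The share of nuclei with a UMI rises with depth, so it is given as counted and at equal depth. Nlrp1b was detected in 13.5% to 21.2% of microglia-like nuclei per young mouse, 22.9% to 24.6% per old ad libitum mouse, 4.63% to 8.21% under acute and 6.98% to 13.9% under long-term restriction. After each nucleus was thinned to 1000 UMIs, which left out shallower nuclei (198 young, 281 old ad libitum, 567 acute and 433 long-term nuclei stayed), young mice were at 14.3% to 19.1%, old ad libitum mice at 8.82% to 17.8%, acute restriction mice at 3.13% to 6.25% and long-term restriction mice at 3.53% to 9.72%. As counted, every old ad libitum mouse was above every young mouse, whereas the CPM of these groups overlapped and at equal depth the young mean (17.4%) was above the old (13.9%). Old ad libitum and long-term restriction mice also overlapped once depth was equal, with old ad libitum replicate 1 (34 nuclei) the lowest of its group. In astrocyte-like nuclei, deeper at a median of 2694 UMIs against 1397, 0.0806% had a UMI of Nlrp1b, against 12.99% of all microglia-like nuclei.

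March3 was detected in 2.88% to 10.0% of microglia-like nuclei in young, 13.7% to 20.0% in old ad libitum, 13.6% to 15.4% in acute and 5.81% to 10.1% in long-term restriction mice. Thinned, old ad libitum mice were at 9.77% to 13.7% and long-term restriction mice at 3.87% to 8.33%, without overlap. Over all microglia-like nuclei 10.7% had a March3 UMI (8.59% thinned). As counted, the classes ranged from 1.57% in oligodendrocyte-like nuclei (median 1883 UMIs) to 50.8% in the deeper CA1 pyramidal neuron-like nuclei (8.99% thinned). Fibroblast-like nuclei were at 44.5% (26.3% thinned). Lrmda was detected in 71.6% to 82.1% of microglia-like nuclei in old ad libitum mice and 49.0% to 69.2% in all others. Thinned, the old ad libitum mice were at 63.8% to 76.7% and the highest other mouse, young replicate 2 (35 nuclei), was at 62.9%. Over all microglia-like nuclei 65.1% had an Lrmda UMI (58.4% thinned). As counted, the classes ranged from 1.61% in Cajal-Retzius-like (median 1950 UMIs) to 81.1% in border macrophage-like nuclei. Astrocyte-like nuclei were at 60.1% (37.95% thinned).

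**Figure D3:**
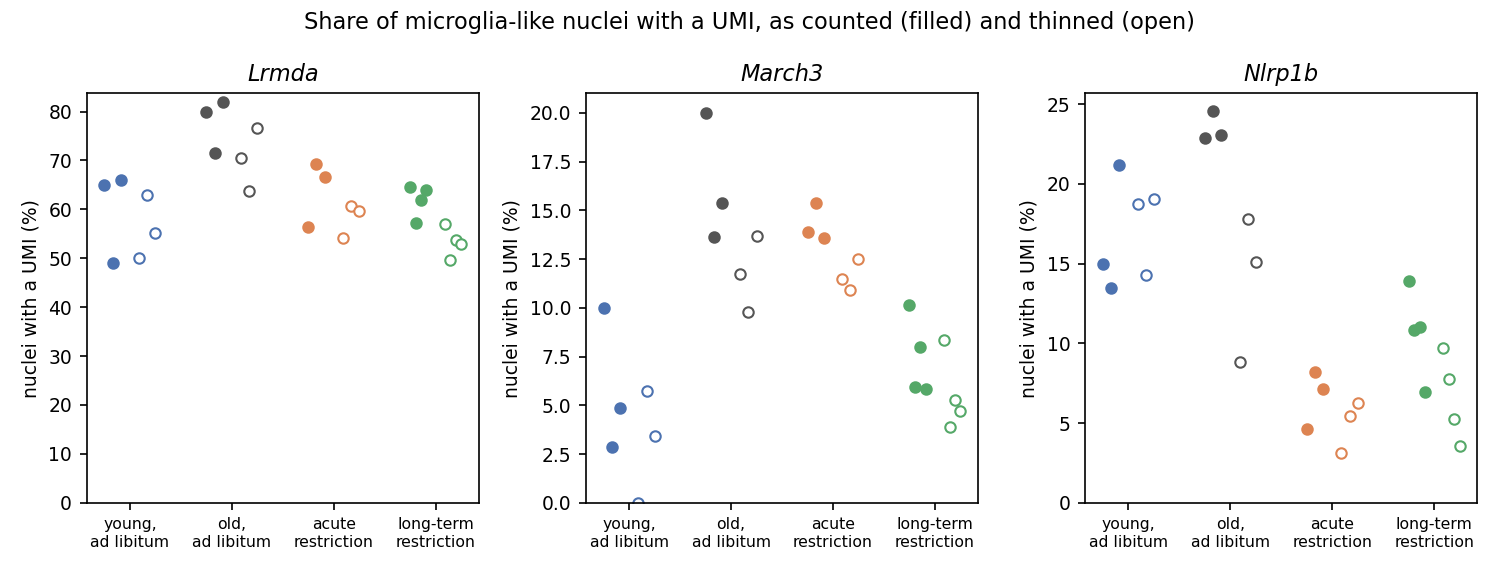
Percent of microglia-like nuclei with at least 1 UMI of each member (vertical axis) per mouse, as counted (filled points) and after thinning each nucleus to 1000 UMIs (open points). For March3 the thinned old ad libitum mice (9.77% to 13.7%) lie above the long-term restriction mice (3.87% to 8.33%).

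Across cell classes the members had different ranges. Nlrp1b was highest in the 3 immune classes. Pooled over libraries it was at 107.1 CPM in microglia-like, 53.4 CPM in lymphocyte-like (2 UMIs in 35 nuclei) and 52.4 CPM in border macrophage-like nuclei. In the other 13 classes it was at 0.0 to 3.61 CPM. By group, Nlrp1b had 40.2 CPM in 1 acute and 66.9 CPM in 1 long-term restriction sum of border macrophage-like nuclei, from 2 UMIs each. The microglia-like means of these groups were 54.0 and 88.0 CPM. Its paralog Nlrp1a was at 24.7 CPM in microglia-like nuclei, from 59 UMIs, and did not pass the filter on low counts. Lrmda was at 2151 CPM in border macrophage-like and 1455 CPM in microglia-like nuclei, and in fibroblast-, astrocyte-, precursor- and oligodendrocyte-like nuclei at 779.1, 629.7, 452.1 and 429.7 CPM. The 7 neuron classes were at 3.82 to 37.2 CPM. March3 was at 345.6 CPM in fibroblast-like, 267.0 CPM in lymphocyte-like (10 UMIs), 228.5 CPM in border macrophage-like, 144.7 CPM in microglia-like and 144.2 CPM in Cajal-Retzius-like nuclei. In young mice March3 had a mean of 51.1 ± 23.6 CPM (SD, n = 3) in microglia-like and 134.6 ± 29.1 CPM (SD, n = 2) in Cajal-Retzius-like nuclei. In old ad libitum mice the means were 235.7 ± 56.9 CPM (SD, n = 3) and 137.2 ± 65.1 CPM (SD, n = 2). The difference between these classes was not tested.

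**Figure D4:**
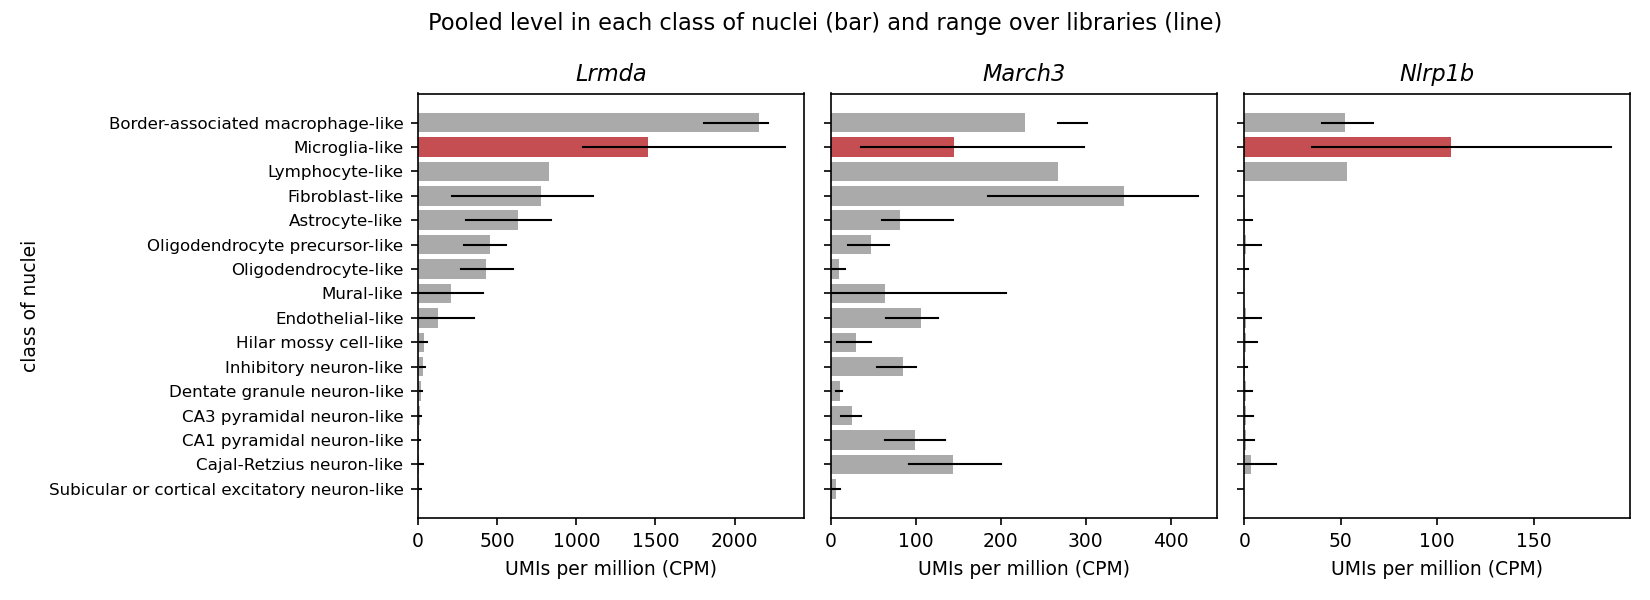
Pooled level of each member (bars, CPM on the horizontal axis) in 16 classes of nuclei, with microglia-like nuclei in red and lines for the range over libraries with at least 20 nuclei (only 2 for border macrophage-like nuclei, so that the line can miss the bar, and none for lymphocyte-like). Nlrp1b is seen in the 3 immune classes, whereas Lrmda extends to glia and March3 to fibroblasts and neurons.

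The other classes were not used to choose the members, but their sums come from the same 13 libraries, the old ad libitum ones included, so their values are no independent support either. Lrmda passed the filter in 7 of 8 other classes, March3 in 8 and Nlrp1b only in granule neuron-like nuclei. There Nlrp1b was at 0.567 to 3.82 CPM in young and 0.346 to 0.852 CPM in old ad libitum mice, and it was called in no contrast. Its log2 fold change was -1.73 ± 0.74 with age (edgeR, adjusted p = 0.162), 0.62 ± 0.74 under long-term (edgeR, adjusted p = 0.999) and 0.41 ± 0.78 under acute restriction (edgeR, adjusted p = 0.999), the last 2 opposite in sign to the microglia-like values. Over these classes 1.71% of pairs of gene and class were called for ageing, with 0.366% of genes in astrocyte-like, 3.31% in granule neuron-like, 2.01% in precursor-like and 6.28% in oligodendrocyte-like nuclei. Lrmda rose with age in 4 of 7 classes: astrocyte-like (1.00 ± 0.14, edgeR adjusted p = 0.00273), granule neuron-like (1.05 ± 0.15, edgeR adjusted p = 0.00803), precursor-like (0.69 ± 0.14, edgeR adjusted p = 0.00392) and oligodendrocyte-like nuclei (0.75 ± 0.17, edgeR adjusted p = 0.00664). In astrocyte-like nuclei the level was 301.9 to 397.6 CPM in young and 621.3 to 691.7 CPM in old ad libitum mice. None of these 4 was called with the gene length trend removed (0.08 to 0.63) or with the depth covariate (0.37 to 0.95), and the oligodendrocyte-like and precursor-like calls were also lost without young replicate 2 (0.72 and 0.60, edgeR adjusted p = 0.088 and 0.0527). March3 passed the test for ageing in 1 of 8 classes, the granule neuron-like nuclei (0.79 ± 0.16, edgeR adjusted p = 0.0343), at 5.81 to 8.12 CPM in young and 8.62 to 12.9 CPM in old mice. Values of like size that did not pass were 0.80 ± 0.19 in CA1 pyramidal neuron-like (edgeR, adjusted p = 0.133), 0.76 ± 0.29 in precursor-like (edgeR, adjusted p = 0.151) and 0.61 ± 0.14 in inhibitory neuron-like nuclei (edgeR, adjusted p = 0.117). The granule neuron-like call was lost in 8 of 22 alternatives, with the depth covariate (0.96), the length trend removed (0.55) and without old ad libitum replicate 2 or 4, acute restriction replicate 2 or 3, or young replicate 2 or 3, at 0.65 to 0.84. Without the 4 libraries numbered 1, these 5 ageing calls held, at 0.62 to 0.97. Whether ageing differed between classes was not tested.

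Restriction gave 1 call among these pairs. Lrmda fell in oligodendrocyte-like nuclei under acute restriction by 0.66 ± 0.16 on the log2 scale (edgeR, adjusted p = 0.0238). Its level was 497.1 to 602.5 CPM in old ad libitum and 288.3 to 401.9 CPM in acute restriction mice. The background was 0.246% of pairs, and 1.71% of genes in oligodendrocyte-like nuclei. Median UMIs per oligodendrocyte-like nucleus were 1988 to 3144 in old ad libitum and 1577 to 1888 in acute restriction mice. With the depth covariate the value was -0.54 (edgeR, adjusted p = 0.53), and with the length trend removed -0.52 (edgeR, adjusted p = 0.20). It was also not called without the 4 libraries numbered 1 (-0.53, edgeR adjusted p = 0.0639) or without acute restriction replicate 1, old ad libitum replicate 1 or old ad libitum replicate 4 (-0.60, -0.60 and -0.62). Under long-term restriction Lrmda was at -0.54 ± 0.15 in oligodendrocyte-like (edgeR, adjusted p = 0.118) and -0.59 ± 0.14 in granule neuron-like nuclei (edgeR, adjusted p = 0.835). In CA1 pyramidal neuron-like nuclei it was at 0.54 ± 0.30 (edgeR, adjusted p = 0.9997) and in astrocyte-like nuclei at 0.04 ± 0.13. Of 7 classes Lrmda was above 0 in 3 and below 0 in 4 under long-term and likewise under acute restriction, and March3 was above 0 in 2 of 8 and in 4 of 8. No member was called for long-term restriction, where the background was 0.0359%, or for long-term minus acute restriction (0.0135%).

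**Figure D5:**
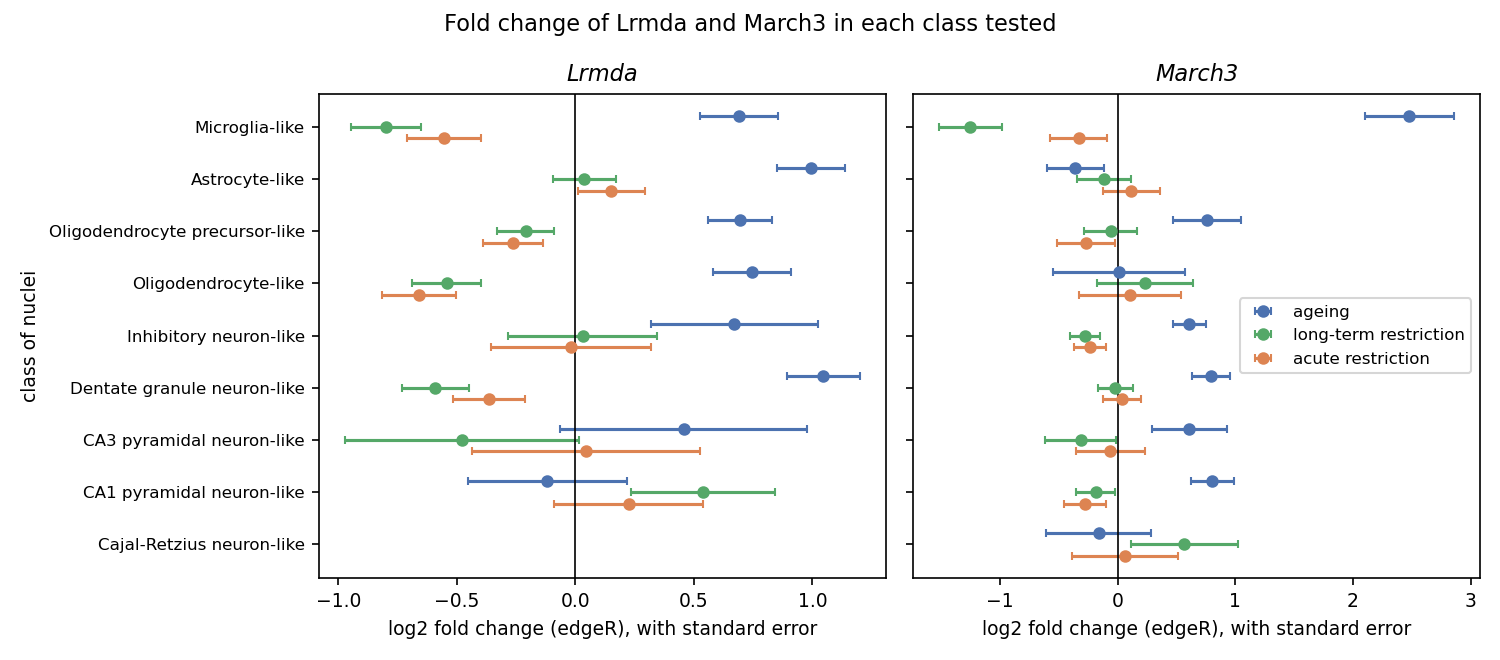
Log2 fold change with standard error (horizontal axis) of Lrmda and March3 in each class tested, for ageing, long-term restriction and acute restriction. For Lrmda the ageing values are above 0 in all classes but CA1 pyramidal neuron-like nuclei (-0.12), and for March3 the microglia-like value of 2.48 is the highest.

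Genes with related roles mostly did not pass the test in microglia-like nuclei, where 2.45% of all genes were called for ageing, 0.0773% for long-term and 0.0258% for acute restriction and 0.0% for their difference. The members called in these lists were chosen for being called, so nothing is read from the counts. Of 26 listed inflammasome genes 10 passed the filter, and Nlrp1b was the single call in any contrast. Casp1 and Dpp9, named because their proteins are mentioned above, had 40 and 37 UMIs. They did not pass the filter and were not tested. The NLRP3 cofactor kinase Nek7, the DNA sensor Aim2 and the Nlrp1b inhibitor Dpp8, the highest by level, were at -0.08, -0.21 and 0.21 under acute restriction, -0.06, -0.28 and 0.16 under long-term restriction and -0.10, 0.08 and -0.19 with age. Of 11 MARCH ligases 5 passed, and March3 was the single call. March1, which targets MHC class II, was at -0.07 with age and -0.10 under long-term restriction, and March7 at 0.20 and -0.18. Of 6 cytokine receptor genes linked to MARCH3, 5 passed and none was called. Il1r1, named because it is the 1 that did not pass, had 17 UMIs. Receptor protein, on which the ligase acts, was not measured. Il6ra, Il6st and Ifngr2 were at 0.02, -0.02 and 0.07 under long-term restriction and 0.19, -0.31 and 0.46 under acute restriction. With age they were at -0.03, 0.19 and -0.42.

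Of 27 genes of Rab32 and Rab38 organelle biogenesis 11 passed, and Lrmda was the single call. Rab32 and Rab38 themselves had 35 and 2 UMIs, did not pass the filter and were not tested. Ap3b1, a subunit of the AP-3 cargo adaptor, was at 0.11 with age and -0.01 under long-term restriction, and Hps3, a BLOC-2 subunit, at 0.22 and -0.36. Of 16 homeostatic microglial genes 14 passed. The lysophosphatidylserine receptor Gpr34 fell with age by 1.09 ± 0.23 on the log2 scale (edgeR, adjusted p = 0.00869) and was at 0.35 under long-term and 0.34 under acute restriction. Tgfbr1, Inpp5d and Mertk, the highest by level, were between -0.07 and 0.07 with age. Of the 14 genes, 13 were below 0 with age and 1 was above. Gpr34 was the single call of the list, whose median with age was -0.19 against 0.0 over all genes, a difference that was not tested.

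Correlations over the 13 microglia-like sums are a description across mice that differed in group and in depth. Lrmda was most like Ccnl1 (Pearson r = 0.90), and Arap2, Hsd17b11 and Setd3 were at 0.81 to 0.85. March3 was most like Arhgap15 (0.86), followed by Btbd9, Gm26740, Eya4 and Dgkb (0.83 to 0.84). Nlrp1b was most like Rbm4 (0.82), followed by Brip1os, Orc4, Neurl1a and Nfu1 (0.76 to 0.81). Between members r was 0.64 for Lrmda and March3, 0.41 for Lrmda and Nlrp1b and -0.28 for March3 and Nlrp1b. With the log2 median of UMIs per nucleus r was 0.60 for Lrmda, 0.64 for March3 and -0.11 for Nlrp1b.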

How the data were processed

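The deposited values were raw UMI counts per gene and barcode, made by the authors with Cell Ranger 4.0.0 on mm10, per the submitters' processing notes. Whether intronic reads or strand were used in counting was not given in the sources used here. The members and gene lists were chosen with earlier results of these data known. Barcodes needed 500 genes and no more than 5% of mitochondrial UMIs, the top 0.8% of Scrublet scores per 1000 barcodes were removed (7386, 7.01%), and nuclei were clustered (scanpy 1.11.5, leidenalg 0.10.2, 2000 genes, 30 components, 20 neighbours, resolution 1) into 44 clusters. Clusters were named from marker lists, which left 18682 nuclei unnamed. Splitting the microglial cluster (1809 nuclei) into sub-clusters, and naming these from immune lists alone, were decided after class sizes had been seen. Naming from every list gave the same 1647 nuclei in the final clustering.

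Counts were summed per mouse and class (at least 20 nuclei, and at least 2 mice in each group), which 9 of 16 classes met. Sums were tested with edgeR 4.0.16 (TMM, filterByExpr, robust quasi-likelihood fit with this version's legacy default) over all 13 mice in R 4.3.3, adjusted by Benjamini-Hochberg within a class, and called at an adjusted p under 0.05. The fit was tested on simulated counts with known changes. Log2 values used a prior count of 2, and standard errors were derived from the F statistic. Named genes were the members, called or 3 highest genes of each list, and the 5 most correlated genes per member, of which 1 is not reported here. With 3 mice against 3 no permutation test of 1 value can go below 0.1. Replicates are mice by their labels' sample numbers, which name no litter or day. Alternatives were DESeq2 1.42.0, its size factors, no filter, replicate block, a term for or omission of libraries numbered 1, depth covariate, gene length trend, doublets kept, border macrophage nuclei left out and each mouse left out. Added after the data had been seen were other edgeR settings, an unsplit microglial cluster, the other naming, other clustering seeds, and omission of the richest nucleus, of nuclei with mural UMIs or of the sub-cluster highest in March3.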

Additional observations from a re-analysis of the deposited data

Results flagged for a closer look

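March3 in oligodendrocyte-like nuclei of long-term restriction replicate 1 lay far from the other 3 mice of its group, at a log2 CPM of 0.39 against 3.51 to 3.87. Its gap to the nearest mouse was 0.898 of the group's range, above Dixon's limit for 4 samples. The library had 186 nuclei and 0 March3 UMIs in this class, against 805 to 993 nuclei in the others, so the value of 0.39 is set by the prior count of 2 and by this library's depth. The gap rests on that count of 0, and counting error bears more on this library than on the others. Of 16 such groups tested 1 stood out, and chance alone would flag about 1 in 20.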

How the results depend on the processing

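Counts of called genes in microglia-like nuclei moved with the processing. For ageing, 95 became 204 with no filter on low counts, 193 with a term for the libraries numbered 1, 270 without these 4 libraries, 9 with median UMIs per nucleus as a covariate, 54 with the gene length trend removed and 7 to 171 with 1 mouse left out (7 without young replicate 3). For long-term restriction, 3 became 8 with no filter, 7 with the term, 5 without the 4 libraries, 0 with the depth covariate, 1 without nuclei holding border macrophage UMIs, 1 without nuclei holding mural UMIs, 1 without the sub-cluster highest in March3, 0 in the unsplit cluster, 5 without edgeR's legacy setting (with or without robust dispersions), 1 and 5 without the March3-richest or Nlrp1b-richest nucleus, and 0 to 12 with 1 mouse left out. For acute restriction, 1 became 8 with no filter, 4 with the term, 3 without the 4 libraries, 2 without the legacy setting (either way), 0 without the Nlrp1b-richest nucleus and 0 to 4 with 1 mouse left out. For long-term minus acute restriction, 0 became 2 with no filter and 1 without the 4 libraries, and stayed at 0 with any 1 mouse left out. The cause of these shifts was not tested. Clustering with 3 other random seeds gave the same 1647 microglia-like nuclei and so the same counts. An earlier clustering that differed in few nuclei, which was not kept, had given more calls for acute restriction, so that count is not stable.

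For pairs of member and other class, ageing had 5 calls, 8 with the term or without the 4 libraries, 0 with the depth covariate or the length trend removed, and 2 to 7 with 1 mouse left out. Long-term restriction had 0, 1 with no filter, and 0 to 1 with 1 mouse left out. Acute restriction had 1, and 0 without the 4 libraries, with the depth covariate or with the length trend removed, and 0 to 1 with 1 mouse left out. Thinning to 1000 UMIs put the mean share of microglia-like nuclei with a UMI at 70.36% (Lrmda, old ad libitum), 53.32% (Lrmda, long-term), 11.74% (March3, old ad libitum), 11.63% (March3, acute), 13.9% (Nlrp1b, old ad libitum) and 6.562% (Nlrp1b, long-term). Lrmda turned to -0.33 in microglial ageing with the length trend removed. Nlrp1b in microglial ageing turned to 0.20 with the depth covariate and 0.03 without old ad libitum replicate 1, and was -0.27 to 0.03 with 1 mouse left out. In the restriction contrasts the 3 members stayed below 0 under all 34 alternatives each, except March3 in acute restriction, which turned to 0.19 without the sub-cluster highest in March3. The members were chosen on these contrasts and the alternatives reuse the same libraries, so the kept sign is a description and no support.

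With the replicate number as a block, the counts in microglia-like nuclei were 211 for ageing, 8 for long-term and 8 for acute restriction, Nlrp1b in ageing was at 0.08, and 1 pair of member and other class was called for long-term restriction. The numbers were not taken to pair the mice. Microglia-like sums numbered 1 correlated at 0.12 to 0.341 in their deviations from group means, but 3 of 6 pairs numbered 2, 1 of 3 numbered 3 and 0 of 1 numbered 4 exceeded 0.1. In granule neuron-like sums 6 of 6 pairs numbered 1 (0.31 to 0.681), 5 of 6 numbered 2, 1 of 3 numbered 3 and 1 of 1 numbered 4 (0.458) did so, with a median of -0.173 between different numbers. Between different numbers, 10 of 47 microglia-like pairs (median -0.076) and 13 of 47 granule neuron-like pairs exceeded 0.1. Same-numbered sums were thus alike more often, but in neither class did every same-numbered pair exceed 0.1. March3 rested on 2 to 68 UMIs and Nlrp1b on 4 to 52 UMIs per library, so counting error limits both more than Lrmda.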
